A study of Mus musculus with 22 samples.

Results

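Rods, the photoreceptors that serve dim light, were compared between postnatal day 13 (P13), about when mouse eyes open, and P30, when the retina is mature. The comparison used 4 of the 22 libraries of the series, 2 of rods at P13 and 2 of rods at P30, and covered all 13405 genes that were tested. The labels give mouse retina, the cell type and the age for each group and state no strain, genotype or treatment. Cells had been sorted, and their RNA was amplified in a linear fashion before TruSeq libraries were made. Rods at P7 and cones at P13 and P30, also with 2 libraries a group, are given where a value needs them. The labels do not state whether both libraries of a group stem from different animals, and the p-values therefore cover only the spread between these libraries, which may be technical.

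A rod carries a stack of light-sensing discs in its outer segment, burns large amounts of glucose to run ion pumps and renew the discs, and signals through a single large synaptic ribbon. Most of the glucose is turned into lactate even with oxygen present, and hexokinase 2 is the enzyme known to mark this in photoreceptors. By P13 discs and ribbons are being assembled, and by P30 the outer segment has reached its full length.

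Depth was 31.4 and 48.5 Mreads at P13 and 43.7 and 54.4 Mreads at P30. Levels are in CPM, read counts scaled to library size by the authors, so they are shares of a library's reads, and fewer cells of a type and less RNA per cell cannot be told apart. A log2 fold change is on the log2 scale of the deposited values, P30 against P13, with its standard error. The 2 P13 libraries were the noisier ones. Their median replicate SD was 0.49 on the log2 scale, against 0.28 at P30 and 0.31 at P7. Genes without reads numbered 1956 and 2463 at P13, 981 and 1396 at P30 and 2343 and 1791 at P7.

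The libraries carried the rod identity of their labels. Nrl, the transcription factor that sets the rod fate, was at 672 and 706 CPM at P13 and at 741 and 749.9 CPM at P30. Pde6b, a subunit of the rod phosphodiesterase, was at 3648 and 4441 CPM at P13 and at 5249 and 4841 CPM at P30, and limma called none of the 8 rod markers (0 at an unadjusted p under 0.05). Cone markers summed to 129.6 and 261 CPM at P13 and 213 and 209.9 CPM at P30, against 35986 CPM or more in each cone library of these ages. Of those 10 markers, Gnat2 (cone transducin) and Pde6c (cone phosphodiesterase) were called higher. Gnat2 was at 0.0703 and 0.327 CPM at P13 and at 18.2 and 14.1 CPM at P30, Pde6c at 0.0703 and 0.0755 CPM at P13 and at 16.9 and 18.8 CPM at P30, and their part in the other results was not tested.

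Of the 13405 genes, 904 (6.74%) were called higher and 710 (5.30%) lower at P30. Both P30 libraries lay above both P13 libraries for 27.6% of all genes and below them for 20.6%. A call needed an adjusted p under 0.05 in limma and at least a doubling or halving. Of the 1614 called genes, 1611 had groups that did not overlap, so a lack of overlap adds little to a call, also for the genes named below. A stricter count kept the genes whose call held when each of the 4 rod libraries was left out in turn: 227 higher (1.69%) and 285 lower (2.13%). The total was 783 without the first P30 library and 3069 without the first P13 library. Gain and loss differed in level. At a mean of at least 32 CPM in the higher group there were 281 higher and 509 lower genes, and 213 of the 904 had no reads in either P13 library.

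The calls rest on a spread pooled over all 11 groups. With array quality weights 178 rose (1.33%) and 223 fell (1.66%), and with only the 6 rod libraries 86 rose (0.642%) and 28 fell (0.209%). With only the 4 libraries limma called none (0.00%), and 2153 had an unadjusted p under 0.05. Of the 512 genes that held, 39 were also called with weights and with the 6 rod libraries. Among them were Hk2, Pfkp, Smug1, Rabgef1, Cbx5, Tmsb10 and Psd2. Among the genes named below whose call held, Cacna1f, Cadm1, Cd207, Grm7, Kcnma1, Mef2c, Nrxn3, Ppfia2, Rpl37, Rsph9, Slc12a2, Stk35 and Stmn3 lost it under both settings. Jun, Slc17a2, Slc17a3 and Slitrk2 lost it with weights alone, and the rest, apart from those 7, with the 6 rod libraries alone. The median over all genes was 0.16, and scaling by plain read totals raised it to 0.37 with 1185 higher and 498 lower calls, totals without mitochondrial transcripts to 0.39 with 1229 and 482, and quantile normalization lowered it to 0.00 with 436 and 634.

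**Figure D1:**
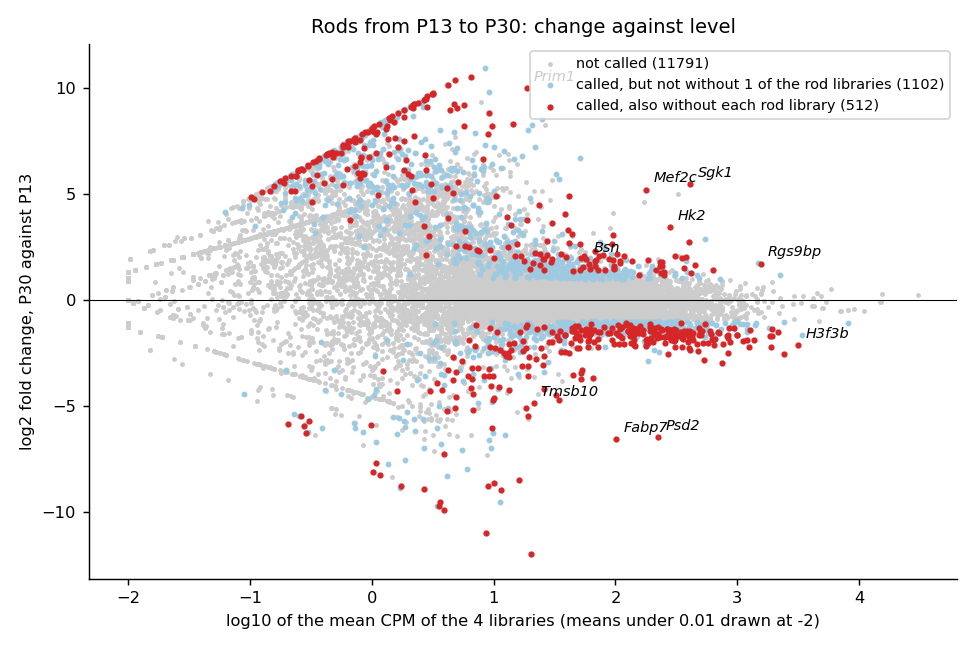
Log2 fold change from P13 to P30 in rods (vertical axis) against log10 of the mean CPM of the 4 libraries (horizontal axis), 1 point per tested gene, with calls that held without each rod library in red. Tmsb10 and Psd2 lie far below 0 and Mef2c and Sgk1 far above it, and the largest fold changes are among genes of low level.

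In sugar metabolism Hk2 and Pfkp rose. Hk2, hexokinase 2, was at 48.6 and 47.5 CPM at P13 and at 544 and 491 CPM at P30. Both mature libraries lay far above both young ones, a log2 fold change of 3.43 ± 0.34 (adjusted p = 1.95e-05). The gene spans chromosome 6, 82725025 to 82774454 on GRCm38 (1-based, as are all positions here). Hk1, the housekeeping hexokinase, was at 447 and 305 CPM at P13 and at 363 and 399 CPM at P30, and its groups overlapped.

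Pfkp, the platelet form of phosphofructokinase and the next committed step of the pathway, was at 135 and 151 CPM at P13 and at 599.6 and 523 CPM at P30. The increase was 1.97 ± 0.23 (adjusted p = 6.69e-05). Pkm, pyruvate kinase, stood at 699.6 and 1105 CPM at P13 and at 779 and 988 CPM at P30, with overlapping groups. Of 33 tested members of the glycolysis and lactate list, 3 rose (9.09%) and 2 fell (6.06%), near the 6.74% and 5.30% of all genes, with a median of 0.20 against 0.16 over all genes. Hk2 and Pfkp held without each rod library.

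The other 3 members called in that list did not hold. Aldoc, aldolase C, was at 67.3 and 83.8 CPM at P13 and at 164 and 173 CPM at P30, and the call was lost without either P30 library (adjusted p up to 0.0506). Ldha, the lactate dehydrogenase subunit that favours lactate, was at 2469 and 4012 CPM at P13 and at 1409 and 1695 CPM at P30. It and Pdk3, a pyruvate dehydrogenase kinase, lost their calls without the second P13 or the first P30 library, with adjusted p up to 0.0604 and 0.273.

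The promoter windows of both enzymes are shown because these are the rises of that list that held. They are upstream stretches of RefSeq windows on GRCm38.p6, cut to leave out exon bases and written 5′ to 3′ on the gene's minus strand. The positions are chr6:82774455-82774704 for Hk2 and chr13:6648778-6649021 for Pfkp. Capitals mark TAATCC, the core bound by the photoreceptor homeobox factors CRX and OTX2, which was searched on both strands.
Hk2: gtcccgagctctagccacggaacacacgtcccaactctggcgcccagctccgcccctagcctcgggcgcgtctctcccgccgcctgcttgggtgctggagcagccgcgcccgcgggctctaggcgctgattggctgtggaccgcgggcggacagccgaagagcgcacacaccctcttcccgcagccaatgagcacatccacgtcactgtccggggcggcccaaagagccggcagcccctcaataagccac
Pfkp: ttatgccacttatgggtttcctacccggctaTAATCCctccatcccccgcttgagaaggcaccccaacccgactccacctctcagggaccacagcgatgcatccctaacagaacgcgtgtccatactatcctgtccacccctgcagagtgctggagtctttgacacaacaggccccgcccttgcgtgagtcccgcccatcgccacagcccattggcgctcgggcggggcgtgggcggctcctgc
The Pfkp window holds TAATCC and the Hk2 window holds none of the 4 motifs searched. Windows were matched for 10409 of the 13405 tested genes. TAATCC was found in 5.93% of their windows (794 of 13390). It was in 8.91% of windows of genes whose higher call held (22 of 247) and in 4.46% of windows of genes whose lower call held (12 of 269). The shares were counted over whole windows, of which the printed stretches are parts. A gene can have more than 1 window, and the difference between shares was not tested.

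Other large gains were in genes of signalling and repair. Sgk1, a kinase induced by glucocorticoids and cell stress, had no reads at P7 and was at 16.2 and 19.6 CPM at P13 and at 656 and 955 CPM at P30. Its gain was 5.47 ± 0.65 (adjusted p = 7.28e-05). Mef2c, a transcription factor of neuronal maturation, was at 13 and 6.87 CPM at P13 and at 346 and 349.7 CPM at P30. The difference was 5.20 ± 1.01 (limma, adjusted p = 0.00296).

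Smug1 encodes a uracil DNA glycosylase of base excision repair and was at 113 and 98.9 CPM at P13 and at 689 and 710.4 CPM at P30. It rose by 2.73 ± 0.15 (adjusted p = 4.89e-08), and no rod library at P13 came near the level of the P30 libraries. Rabgef1, an exchange factor for the endosomal GTPase Rab5, was at 236 and 204 CPM at P13 and at 656 and 707 CPM at P30 and rose by 1.64 ± 0.22. Stk35, a serine-threonine kinase, was at 229.6 and 90.1 CPM at P13 and at 577 and 606 CPM at P30 and rose by 2.04 ± 0.36, with a wide spread at P13.

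Of 22 photoreceptor transcription factors, Mef2c, Mef2d and Sall3 rose (13.6%, against 6.74% of all genes) and none fell, and Mef2c alone held. All 3 calls were lost with array weights and with the 6 rod libraries. Mef2d, a relative of Mef2c that works with CRX at photoreceptor genes, was at 57.1 and 30.6 CPM at P13 and at 100.4 and 72.3 CPM at P30 and lost its call without the second P13 or the first P30 library (adjusted p up to 0.281). Sall3, a zinc finger factor, was at 0 and 0.478 CPM at P13 and at 2.15 and 1.91 CPM at P30. It lost its call without the first P13 library or either P30 library (adjusted p up to 0.158). Crx itself, the homeobox factor of both photoreceptor types, was at 1883 and 2061 CPM at P13 and at 1823 and 1915 CPM at P30, with overlapping groups. Otx2, which acts upstream of Crx, was at 1449.9 and 1556 CPM at P13 and at 819 and 879 CPM at P30, a change of -0.82 ± 0.15 (adjusted p = 0.00177) that fell short of the fold a call needs.

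**Figure D2:**
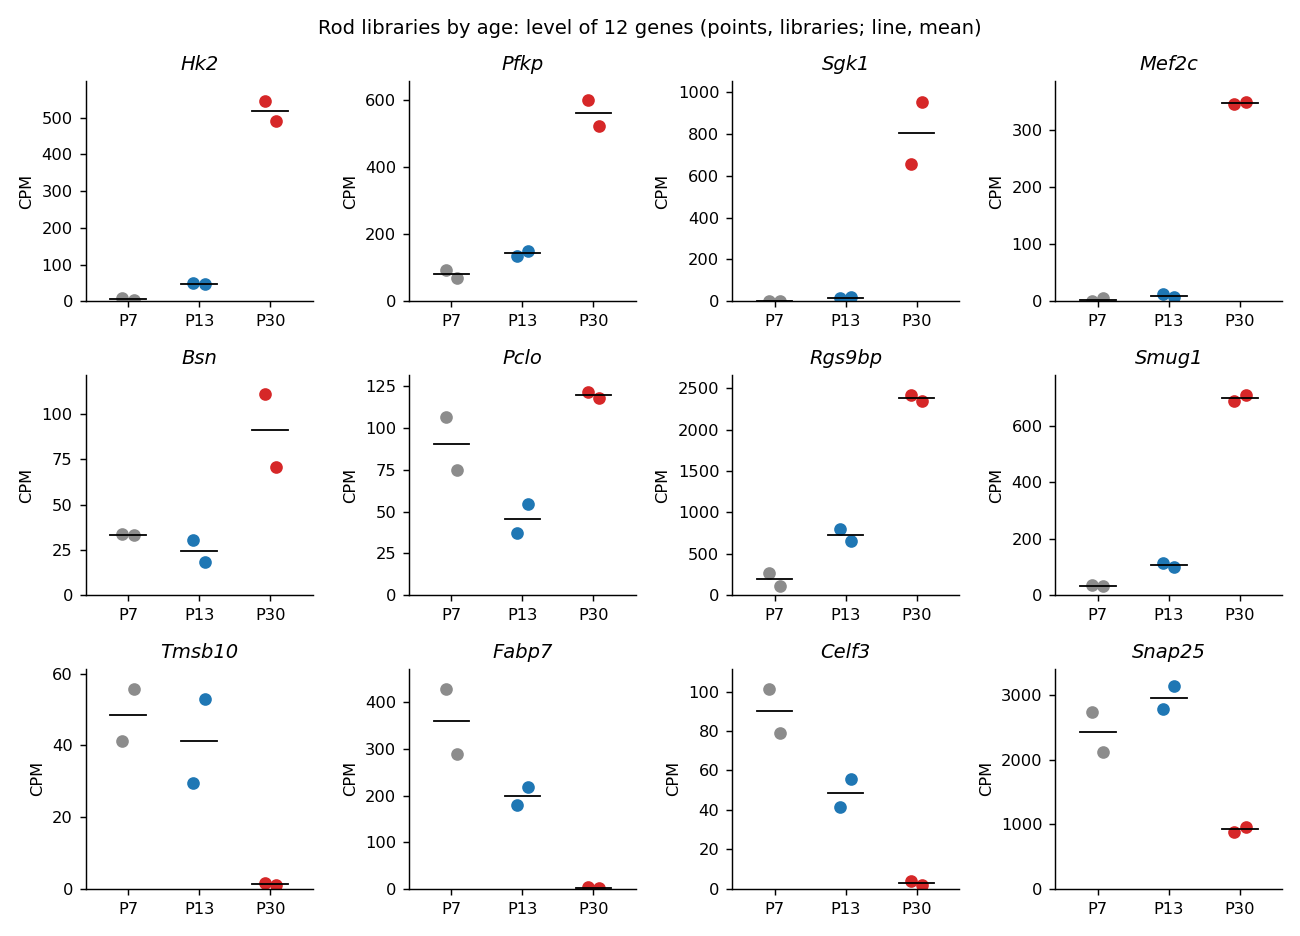
Level in CPM (vertical axis) of 12 genes in the 6 rod libraries by age (horizontal axis), with points for libraries and a line for each mean. For Hk2, Pfkp, Sgk1, Mef2c, Bsn, Pclo, Rgs9bp and Smug1 both P30 points lie above both P13 points, and for Tmsb10, Fabp7, Celf3 and Snap25 both lie below.

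At the synaptic terminal, Bsn, Pclo and Cacna1f rose, and Snap25 and Cplx3 of the vesicle machinery fell. Bassoon (Bsn), which anchors the ribbon to the active zone, was at 30.3 and 18.2 CPM at P13 and at 111 and 70.7 CPM at P30. Both mature libraries were higher, by 1.92 ± 0.29 (adjusted p = 0.000566). Piccolo (Pclo), its large relative whose short form builds the ribbon, was at 37.1 and 54.3 CPM at P13 and at 121 and 118 CPM at P30. It rose by 1.41 ± 0.27 (adjusted p = 0.00237), from a P13 level below the 107 and 74.6 CPM of P7.

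Of 20 ribbon and active zone genes, those 2 rose and only Ppfia2 fell, shares near the 6.74% and 5.30% of all genes. Ppfia2, a liprin that organises release sites, was at 167 and 172 CPM at P13 and at 79.4 and 70.5 CPM at P30, a change of -1.18 ± 0.20, and all 3 calls held. Ctbp2, whose RIBEYE form is the core of the ribbon, was at 381 and 226 CPM at P13 and at 251 and 237 CPM at P30 and was not called. All 3 calls were lost when only the 6 rod libraries were fitted, and that of Ppfia2 also with array weights.

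Cacna1f, the L-type calcium channel that triggers release at the ribbon, was at 154 and 151 CPM at P13 and at 389 and 308 CPM at P30. It rose by 1.18 ± 0.18 (limma, adjusted p = 0.000570). No call among the terminal channel and cleft genes was kept with array weights or with only the 6 rod libraries. Of those 20 genes Cacna1f alone rose, and Kcnma1, Nrxn3 and Lrit1 fell, against 6.74% and 5.30% of all genes. Nrxn3, a presynaptic neurexin, was at 56.6 and 30.4 CPM at P13 and at 14.0 and 3.14 CPM at P30, a change of -2.64 ± 0.53. Kcnma1, a calcium-activated potassium channel, was at 2.49 and 1.84 CPM at P13 and at 0.543 and 0.0744 CPM at P30. Lrit1, a leucine-rich repeat protein of photoreceptor synapses, was at 1769 and 1491 CPM at P13 and at 738 and 766 CPM at P30, and its change of -1.11 became -0.99 without the first P13 library.

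Among 26 genes of synaptic vesicles and release, none rose and 3 fell (11.5%), against 6.74% and 5.30% of all genes. Snap25, a SNARE protein that drives vesicle fusion, was at 2781 and 3138 CPM at P13 and at 879 and 967 CPM at P30. It was lower by more than the spread between libraries, -1.68 ± 0.17 (adjusted p = 2.49e-05). Cplx3, a complexin of ribbon synapses, was at 102 and 84.0 CPM at P13 and at 17.9 and 33.7 CPM at P30, -1.92 ± 0.22. Syp, synaptophysin, was at 33.6 and 46.5 CPM at P13 and at 16.4 and 15.1 CPM at P30, and its call was lost without the second P13 library or either P30 library (adjusted p up to 0.150). Slc17a7, the vesicular glutamate transporter of photoreceptors, was at 770.1 and 710.3 CPM at P13 and at 483 and 547 CPM at P30, short of the fold that a call needs. The median of these genes was -0.40.

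Of 14 rod phototransduction genes, 1 rose and 1 fell (7.14% each), near the 6.74% and 5.30% of all genes, and neither call held without each library. Guca1b, a calcium sensor that regulates guanylate cyclase, was at 676 and 696 CPM at P13 and at 2271 and 2274 CPM at P30, with P7 at 7.80 and 10.4. Its change was 1.73 ± 0.49 (adjusted p = 0.0261), and the adjusted p reached 0.122 with 1 library left out, each of the 4 in turn ending the call. Gngt1, the rod transducin gamma subunit, was at 8657 and 13140.4 CPM at P13 and at 3709 and 6675 CPM at P30 and lost its call without the second P13 or the first P30 library (adjusted p up to 0.326).

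Of 14 genes that shut off or adapt the response, 3 rose (21.4%) and 1 fell (7.14%), against 6.74% and 5.30% of all genes. Rgs9bp anchors the RGS9 complex that turns transducin off, and was at 804 and 651 CPM at P13 and at 2419 and 2339.6 CPM at P30. It rose by 1.72 ± 0.27 (limma, adjusted p = 0.000773) and was the 1 of these 4 whose call held. Grk1, rhodopsin kinase, was at 1622 and 1133 CPM at P13 and at 3396 and 2748 CPM at P30, and Rcvrn, recoverin, which inhibits that kinase, was at 3688 and 6601 CPM at P13 and at 1199 and 2078 CPM at P30. Their calls were lost without the second P13 or the first P30 library, and for Grk1 also without the second P30 library. The adjusted p then reached 0.192 and 0.199.

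Of 33 disc and outer segment genes, 2 were called higher and 2 lower (6.06% each), near the 6.74% and 5.30% of all genes. Cdhr1, a cadherin at the site where new discs form, was at 2780.3 and 2785 CPM at P13 and at 1119 and 1056 CPM at P30. The P30 libraries were lower in both, -1.36 ± 0.16 (adjusted p = 6.95e-05), and this call alone held. The others were Adgrv1, a large adhesion receptor of the ciliary region, at 55.1 and 76.0 CPM at P13 and at 172 and 154 CPM at P30, Tmem237, a ciliary transition zone protein, and Kif17, a ciliary kinesin with no reads at P13 and 3.01 and 2.51 CPM at P30. With 1 library left out (the first P30 library for each, and for Tmem237 and Kif17 others too) their adjusted p reached 0.0606, 0.133 and 0.0848. Of the 14 retinoid genes limma called none (4 at an unadjusted p under 0.05).

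Transcripts for cytosolic ribosomal proteins, the structural proteins of the ribosome, had the largest number of falls among the lists. Of 83 tested, 60 fell and none rose, against 5.30% of all genes that fell, with a median of -1.38. Rpl23 was at 1096 and 1759 CPM at P13 and at 183 and 340.2 CPM at P30, -2.47 ± 0.26, and Rpl13 at 205 and 378 CPM at P13 and at 44.0 and 86.0 CPM at P30, -2.18 ± 0.30. For both genes the P30 libraries lay below the P13 libraries, which themselves differed by more than 1.5-fold. Ribosomal protein genes have many near-identical processed copies, so how reads were divided among copies is uncertain.

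The fall held without each rod library for 27 of the 60. It was called for 30 without the second P13 library, 31 without the first P30 library, 73 without the first P13 library, 29 with array weights, 51 under totals without mitochondrial transcripts, 45 with quantile normalization and none with only the 6 rod libraries. The summed level was 26047 and 48516 CPM at P13 and 9854 and 16649 CPM at P30, so that the 2 ages did not overlap. At P7 it was 38874 and 35788 CPM.

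Nuclear genes for the respiratory chain and ATP synthase, the mitochondrial machinery that makes ATP, went the same way. Of 70 tested, 44 fell (62.9%, against 5.30% of all genes) and none rose, with a median of -1.35. Cox6c, a subunit of cytochrome oxidase, was at 2988 and 5254 CPM at P13 and at 505 and 939 CPM at P30, -2.52 ± 0.28 (adjusted p = 4.02e-05). Ndufa1, a small subunit of complex I, was at 926 and 1738 CPM at P13 and at 110.5 and 246 CPM at P30, -2.94 ± 0.31. Atp5g3, of the ATP synthase rotor, was at 2113 and 3514 CPM at P13 and at 664 and 1085 CPM at P30, -1.68 ± 0.25. The first library was the lower one at both ages for each of these genes. Ndufv1, a catalytic subunit of complex I, was at 157 and 346 CPM at P13 and at 227 and 265 CPM at P30 and was not called.

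Of the 44 calls, 26 held without each rod library. The count was 28 without the second P13 library, 27 without the first P30 library, 54 without the first P13 library, 24 with array weights, 38 under totals without mitochondrial transcripts, 35 with quantile normalization and none with only the 6 rod libraries. Transcripts of the mitochondrial genome, which encode partner subunits of the same complexes, had no call by limma among the 10 tested (0 at an unadjusted p under 0.05). mt-Co1 was at 8524 and 10382 CPM at P13 and at 8252 and 5486 CPM at P30 and mt-Cytb at 26244 and 29350.4 CPM at P13 and at 39388 and 26706 CPM at P30. Of 25 genes of the tricarboxylic acid cycle, none rose and 2 fell, against 6.74% and 5.30% of all genes. Of these 2 Suclg1, a succinate ligase subunit, held, at 401 and 746 CPM at P13 and at 169 and 232 CPM at P30.

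Both lists hold short transcripts, and the change followed transcript length across all genes. The median length of the longest annotated transcript was 1106 bases for the ribosomal list and 1003 bases for the respiratory list. Over all tested genes the median log2 fold change was -0.38 under 1 kb (593 genes), 0.00 from 1 to 2 kb (2090), 0.18 from 2 to 4 kb (5394), 0.24 from 4 to 8 kb (4471) and 0.33 over 8 kb (857). In the shortest class 20.7% of genes fell, against 3.78% to 7.80% in the other classes. Without both lists the shortest class had a median of -0.15, and 12.6% of it fell. In cones the medians lay between -0.11 and 0.00, and in rods from P7 to P13 between -0.03 and 0.11. The part of transcript length in the fall of these lists was not tested.

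**Figure D3:**
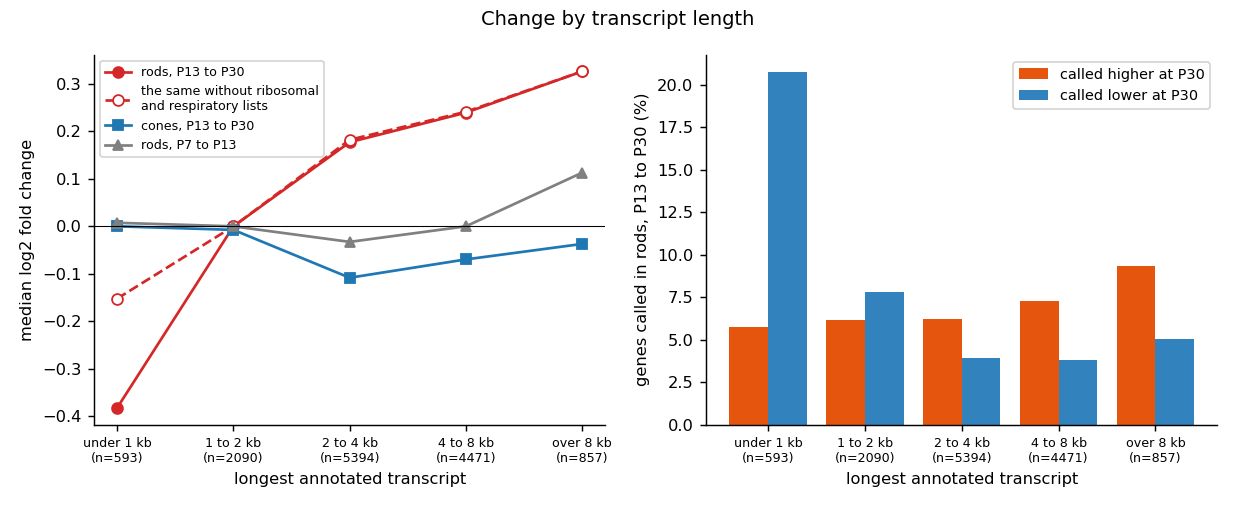
Left, median log2 fold change from P13 to P30 (vertical axis) by class of longest annotated transcript (horizontal axis) for rods, for rods without the ribosomal and respiratory lists, and for cones. A further line gives the change in rods from P7 to P13. Right, percent of genes called higher and lower in rods in each class, where 20.7% of the shortest class fell.

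A promoter window from each of these lists is shown because the members moved together. They are upstream stretches of RefSeq windows on GRCm38.p6, cut to leave out exon bases and written 5′ to 3′. The positions are chr15:5116363-5116612 on the plus strand for Rpl37 and chr2:73911327-73911576 on the minus strand for Atp5g3. Capitals mark CCGGAAG, the core of ETS factors, in Rpl37 and CACGTG, an E-box, in Atp5g3.
Rpl37: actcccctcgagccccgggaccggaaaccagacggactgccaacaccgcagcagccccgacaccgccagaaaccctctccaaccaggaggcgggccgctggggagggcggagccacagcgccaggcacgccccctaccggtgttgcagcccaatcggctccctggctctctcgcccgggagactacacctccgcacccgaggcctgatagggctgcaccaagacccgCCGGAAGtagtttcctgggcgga
Atp5g3: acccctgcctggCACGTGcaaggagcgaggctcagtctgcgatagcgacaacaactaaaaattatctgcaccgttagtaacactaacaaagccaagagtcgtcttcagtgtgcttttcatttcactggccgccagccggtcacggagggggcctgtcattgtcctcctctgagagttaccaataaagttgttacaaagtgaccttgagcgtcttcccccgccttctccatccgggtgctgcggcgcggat
CCGGAAG, searched on both strands, was in 34.7% of ribosomal windows (26 of 75), 21.9% of respiratory windows (14 of 64) and 16.1% of the windows of all tested genes. The NRF1 site was in 7.81% of respiratory windows, only 5 of 64, and 1.90% of all. CACGTG was in 9.38% of respiratory windows and 9.52% of all. Here too the shares were counted over whole windows, and differences between them were not tested. No motif overlapped another in its letters.

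**Figure D4:**
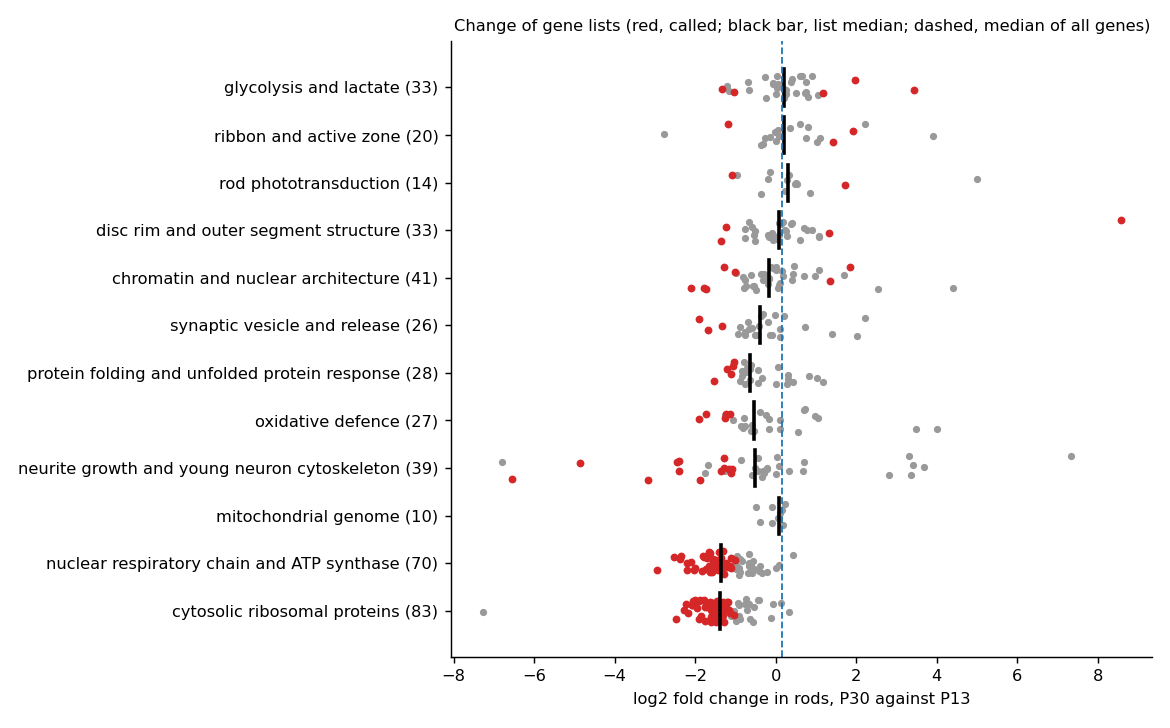
Log2 fold change from P13 to P30 in rods (horizontal axis) for each tested member of 12 gene lists (rows, number tested in brackets), called genes in red, list medians as black bars and the median of all genes dashed. Nearly the whole ribosomal and respiratory lists lie left of 0, whereas the 10 mitochondrial genome transcripts sit around 0.07.

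Of 39 tested genes of growing neurites and the young cytoskeleton, 13 fell (33.3%, against 5.30% of all genes), none rose and 26 were not called, with a median of -0.52. Tmsb10, an actin-binding thymosin of young neurons, was at 29.4 and 52.9 CPM at P13 and at 1.58 and 1.15 CPM at P30. The P30 libraries were lower by a wide margin, -4.86 ± 0.35 (adjusted p = 6.39e-07). Its level at P7 was 41.3 and 55.7 CPM, near that of P13. The gene spans chromosome 6, 72957347 to 72958748.

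Fabp7, the brain fatty acid binding protein of immature neural cells, was at 179.9 and 219 CPM at P13 and at 4.28 and 1.04 CPM at P30, -6.55 ± 0.99. Fabp5, its relative, was at 42.9 and 88.6 CPM at P13 and at 11.9 and 10.8 CPM at P30, and Marcksl1, an actin-regulating protein, at 10.2 and 13.2 CPM at P13 and at 2.69 and 0.595 CPM at P30. Tuba1a, the alpha tubulin of young neurons, was at 2336 and 1966 CPM at P13 and at 519 and 643 CPM at P30, -1.89 ± 0.19, though near-identical tubulin genes make its share of reads uncertain. Stmn3, a microtubule regulator, was at 23.6 and 28.8 CPM at P13 and at 11.8 and 9.67 CPM at P30. In each of these the call held.

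Of the 13 falls, 6 held without each rod library, 8 to 12 were called with 1 library left out (8 without the first P30 library), 5 with array weights and 1, Tmsb10, with only the 6 rod libraries. Without the first P13 library 5 members of the list were called higher beside 12 lower. Actb, cytoplasmic beta actin, was at 345 and 502 CPM at P13 and at 153 and 250.1 CPM at P30 and lost its call without the second P13 or the first P30 library (adjusted p up to 0.298). Under plain read totals and totals without mitochondrial transcripts 8 of the list fell.

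Regulators of splicing included 2 held falls among 31 genes. Celf3, a neural RNA-binding protein, was at 41.6 and 55.5 CPM at P13 and at 3.76 and 1.80 CPM at P30, -4.20 ± 0.30 (adjusted p = 6.93e-07). Srrm4, which drives inclusion of neural microexons, was at 69.5 and 68.5 CPM at P13 and at 30.3 and 28.0 CPM at P30. Its change was -1.24 ± 0.18. Khdrbs3 was called higher and Nova1 lower in the same list, and neither held. In all, 1 of the list rose (3.23%) and 3 fell (9.68%), against 6.74% and 5.30% of all genes.

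The chromatin list of 41 genes had 2 rises (4.88%) and 5 falls (12.2%), against 6.74% and 5.30% of all genes. Cbx5, the heterochromatin protein HP1 alpha, was at 29.7 and 29.0 CPM at P13 and at 116 and 95.4 CPM at P30. It rose by 1.84 ± 0.20 (adjusted p = 3.19e-05), also with weights and with the 6 rod libraries. H3f3b, a gene for the replication-independent histone H3.3, was at 4512 and 5790.5 CPM at P13 and at 986 and 1419 CPM at P30, -2.11 ± 0.25, the largest loss in CPM among the genes whose call held. H3f3a, which encodes the same protein, was at 37.4 and 46.5 CPM at P13 and at 40.0 and 47.0 CPM at P30, and copies of H3.3 genes make the split of reads uncertain.

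Hmgn2 and Hmgn3, nucleosome-binding proteins that loosen chromatin, were at 246 and 478 CPM at P13 and at 94.9 and 111 CPM at P30, and at 64.8 and 77.5 CPM at P13 and at 15.1 and 28.0 CPM at P30. They changed by -1.74 ± 0.26 and -1.79 ± 0.23. Dnmt3a, a DNA methyltransferase, was at 499.5 and 346 CPM at P13 and at 238 and 180.3 CPM at P30, and its change of -1.01 became -0.74 without the first P13 library and -0.81 without the second P30 library. Dnmt1, the maintenance methyltransferase, was called higher but with an adjusted p of up to 0.411 when the second P13 library or either P30 library was left out.

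Genes of stress defence and turnover were lower or not called. Of 27 oxidative defence genes 5 fell (18.5%, against 5.30% of all genes). Among them, Sod1, superoxide dismutase, was at 541 and 759.9 CPM at P13 and at 160.3 and 229 CPM at P30 (-1.74 ± 0.21). Txn1, thioredoxin, was at 459 and 493 CPM at P13 and at 85.3 and 189.7 CPM at P30 (-1.90 ± 0.27). Both held. Of 30 autophagy and lysosome genes 6 fell, against 5.30% of all genes, and 5 of these 6 held. Map1lc3a and Map1lc3b, LC3 proteins of the autophagosome, were at 18.2 and 49.0 CPM at P13 and at 2.69 and 8.09 CPM at P30 and at 214 and 419.7 CPM at P13 and at 86.5 and 119 CPM at P30. Gabarap, a related protein, was at 194 and 272 CPM at P13 and at 66.4 and 92.1 CPM at P30 and Ctsl, a lysosomal protease, at 134 and 180.5 CPM at P13 and at 51.3 and 71.0 CPM at P30.

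Of 28 genes of protein folding 5 fell (17.9%, against 5.30% of all genes), and none held. Hspa5, the main chaperone of the endoplasmic reticulum, was at 780.2 and 913 CPM at P13 and at 259.9 and 329 CPM at P30, and its adjusted p was 0.0747 without the first P30 library. None of these 3 lists had a gene that rose, against 6.74% of all genes.

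Contact and receptor genes were mixed. Of 49 adhesion genes 3 rose (6.12%) and 7 fell (14.3%), against 6.74% and 5.30% of all genes. Cadm1, a synaptic adhesion molecule, was at 1388 and 1278 CPM at P13 and at 505 and 553 CPM at P30 (-1.33 ± 0.21), and Jam2, a junctional adhesion molecule, at 794 and 701 CPM at P13 and at 366 and 316 CPM at P30 (-1.13 ± 0.15). Unc5d, a netrin receptor, was at 9.49 and 16.5 CPM at P13 and at 0.385 and 0.836 CPM at P30 (-4.44 ± 0.53), and Tenm3, a teneurin of synaptic matching, at 37.2 and 31.2 CPM at P13 and at 7.08 and 1.12 CPM at P30 (-3.59 ± 0.66). Each of these 4 falls held.

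Rises in that list were of low level. Tenm4 was at 53.8 and 34.4 CPM at P7, without reads at P13 and at 0.611 and 0.372 CPM at P30. Slitrk2 went from no reads at P13 to 0.973 and 0.725 CPM, at least 19.3-fold higher against 3 reads over the group. Of 26 receptor genes 3 rose (11.5%) and 2 fell (7.69%), against 6.74% and 5.30% of all genes, and 1 call held in each direction. The list median was 1.95, but -0.73 over the 9 members with reads in all 4 rod libraries and 0.34 with log2(CPM + 1). Summed levels of the list were 675 and 849 CPM at P13 and 457 and 468 CPM at P30. Grm7, a metabotropic glutamate receptor, was at 29.6 and 34.2 CPM at P13 and at 1.13 and 0 CPM at P30 and fell.

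In ion transport, 2 of 26 genes rose (7.69%) and 4 fell (15.4%), against 6.74% and 5.30% of all genes. Trpc1, a cation channel, was at 43.1 and 37.4 CPM at P13 and at 155 and 144 CPM at P30, 1.89 ± 0.29. Slc12a2, a sodium, potassium and chloride cotransporter, was at 255 and 169.8 CPM at P13 and at 82.9 and 72.0 CPM at P30, -1.43 ± 0.28, having been at 81.2 and 57.4 CPM at P7. Both held, and the chloride transporter stood highest at P13 of the 3 ages.

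In lipid synthesis, Tm7sf2, a sterol reductase of cholesterol synthesis, was at 1.12 and 5.71 CPM at P13 and at 34.2 and 34.7 CPM at P30. It was the 1 gene of 20 in its list that rose, and none fell, against 6.74% and 5.30% of all genes. Ptdss1, which makes phosphatidylserine, was at 71.5 and 62.4 CPM at P13 and at 27.4 and 22.6 CPM at P30, a change of -1.42 ± 0.23, and it held. The call of Tm7sf2 held too.

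Activity and clock genes had few calls. Jun, an immediate early factor, was at 86.2 and 84.6 CPM at P13 and at 30.3 and 24.2 CPM at P30, -1.66 ± 0.34, and held. Egr1, another, was at 274 and 372 CPM at P13 and at 51.4 and 36.2 CPM at P30 after 28.4 and 25.7 CPM at P7, and leaving out any of the 4 libraries ended its call (adjusted p up to 0.167). Among 20 clock genes Per3 was at 77.2 and 12.5 CPM at P13 and at 150.0 and 128 CPM at P30 and Cry2 at 40.6 and 58.8 CPM at P13 and at 27.3 and 14.5 CPM at P30. Per3 lost its call without the second P13 or the first P30 library and Cry2 without the second library of either age, with adjusted p up to 0.0928 and 0.0717. The labels give no time of day.

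Among the largest fold changes were those of genes near the limit of detection at 1 age. Slc17a2 and Slc17a3, neighbouring transporters of the sodium-phosphate family on chromosome 13, had no reads at P13 and 20.6 and 5.30 and 11.9 and 7.40 CPM at P30. Against a floor of 3 reads over the P13 libraries (0.0440 CPM) they were at least 294-fold and 219-fold higher. Unc13c, which primes synaptic vesicles, went from no reads to 16.7 and 0.744 CPM, at least 198-fold, with P30 libraries that differed widely. Akap12, a scaffold for protein kinase A, was at 0.562 and 0 CPM at P13 and at 20.3 and 17.7 CPM at P30.

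In the other direction, Calml4, a calmodulin-like protein, had 12.5 and 68.9 CPM at P13 and no reads at P30, at least 1329-fold lower against 3 reads (0.0306 CPM). Cabp2, a calcium-binding protein of sensory synapses, had 27.0 and 7.65 CPM and then none, at least 566-fold lower. Psd2, an exchange factor for ARF6, stayed well above that floor at both ages. It was at 555 and 334 CPM at P13 and at 6.61 and 3.70 CPM at P30, -6.44 ± 1.21. Rsph9, a radial spoke protein of motile cilia, was at 19.5 and 51.0 CPM at P13 and at 0.407 and 2.10 CPM at P30 and Zfp141, a zinc finger protein, at 6.71 and 19.7 CPM at P13 and at 0.294 and 0.335 CPM at P30. All of these calls held without each rod library.

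Among other losses of abundant transcripts, Tma7, a small protein associated with translation, was at 2457 and 3666 CPM at P13 and at 467 and 907 CPM at P30 and Plekhb1, a membrane-binding protein of photoreceptors, at 3381 and 3041 CPM at P13 and at 1028 and 1261 CPM at P30. Their changes were -2.21 ± 0.26 and -1.49 ± 0.19.

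Müller glia markers summed to 181 and 193 CPM at P13 and 261 and 139.9 CPM at P30, microglia markers to 6.64 and 1.16 and then 6.93 and 14.4 CPM, and limma called none of the 14 markers in these lists (3 at an unadjusted p under 0.05). Pigment epithelium markers, chiefly Ttr, summed to 45.6 and 48.2 CPM at P13 and 2.90 and 7.27 CPM at P30. The 8 bipolar markers summed to 1734 and 1863 CPM at P13 and 1153 and 1182 CPM at P30, nearly all of it from Otx2 and Prkca, at 1449.9 and 1556 CPM at P13 and at 819 and 879 CPM at P30 and at 273 and 302 CPM at P13 and at 325 and 300.0 CPM at P30. Of the others, Cabp5 was called higher, at 0.0703 and 0 CPM at P13 and at 1.63 and 0.632 CPM at P30, and Grm6 had no reads in any of the 4 libraries.

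The late change of rods differed from that of cones. Testing the difference itself, change in rods minus change in cones, called 1346 genes: 754 with rods higher (5.62%) and 592 with rods lower (4.42%). Of these, 497 held without each of the 8 libraries. The count was 692 without the first rod library at P30, 2906 without the first rod library at P13 and 858 without the second cone library at P13. It was 130 with array weights and 2 with only the 8 libraries. In cones at P30, 38.7% and 28.6% of reads came from the mitochondrial genome, against 9.88% and 6.39% in rods, and under plain totals the split was 1851 higher to 219 lower.

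Hk2 was at 349 and 385 CPM in cones at P13 and 684 and 915 CPM at P30, so its change was 1.11 ± 0.34 there and differed by 2.32 ± 0.48 (adjusted p = 0.00818). Smug1 differed by 2.22 ± 0.21 and Cbx5 by 1.71 ± 0.28. Cacna1f was at 227 and 246 CPM and then 222 and 222 CPM in cones, a difference of 1.27 ± 0.25 (adjusted p = 0.00677). For Bsn the difference from cones was 1.11 ± 0.41, which did not pass (adjusted p = 0.101), as was so for Pclo, at 1.13 ± 0.38 (adjusted p = 0.0672).

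Several falls were not shared by cones. Tmsb10 was at 129 and 133 CPM and then 154 and 175 CPM in cones, and the changes differed by -5.19 ± 0.49 (adjusted p = 2.84e-05). Snap25 was at 1942 and 2020.2 CPM and 2539 and 2630.4 CPM in cones and differed by -2.06 ± 0.24 (adjusted p = 0.000211). Cdhr1 was at 2954 and 2718 CPM and 2377 and 2878 CPM in cones and differed by -1.24 ± 0.23 (adjusted p = 0.00410). These differences held without each of the 8 libraries.

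Of the 83 ribosomal genes, 31 changed lower in rods than in cones and none higher, against 4.42% and 5.62% of all genes. The list median in cones was -0.18. Of the 70 respiratory genes, 32 changed lower in rods and 1 higher, against the same shares of all genes, with a median in cones of -0.05. The median difference over all genes was 0.31.

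**Figure D5:**
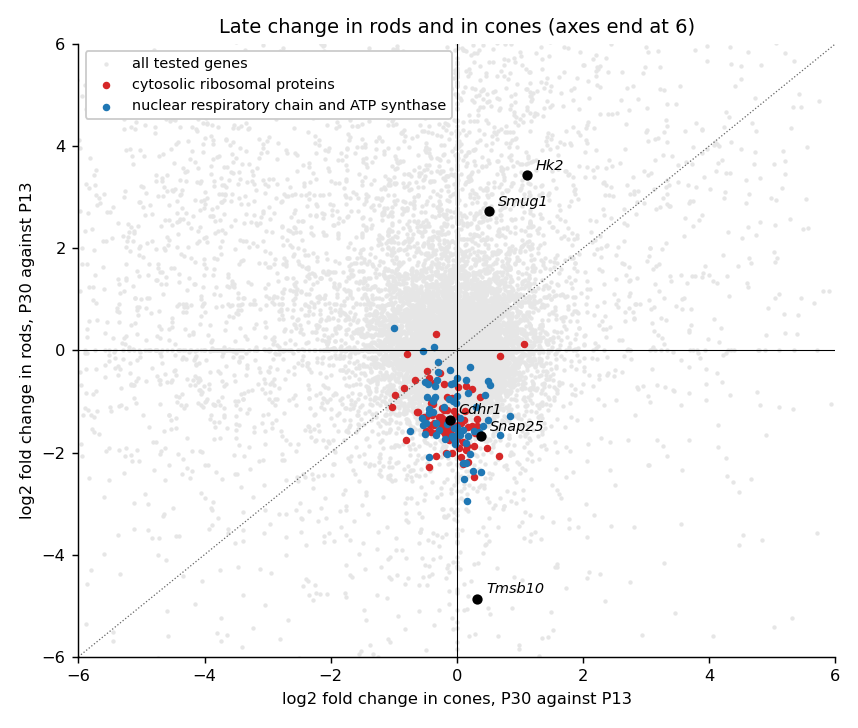
Log2 fold change from P13 to P30 in rods (vertical axis) against that in cones (horizontal axis), 1 point per tested gene, with genes beyond 6 on either axis not drawn and equal change on the dotted line. Ribosomal and respiratory genes lie around 0 in cones and near -1.4 in rods, and Hk2 and Smug1 lie above the dotted line.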

How the data were processed

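Rods, cones and bipolar cells were sorted from mouse retina at P7, P13 and P30 and sequenced, with 2 libraries in each of 11 groups. The submitters' processing notes name STAR, edgeR and the GRCm38 build, without versions. Values deposited by the authors are log2 CPM for 13812 genes, and a gene without reads has -7.10. On the linear scale 100.0% of them came to whole reads within 0.01 of a read, from which depths and floors were taken.

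Symbols came from GENCODE M21, and 27 unmatched genes (0.109% of reads) were left out. limma 3.58.1 (R 4.3.3) was fitted to the deposited log2 values of all 22 libraries, with 1 coefficient per group and an intensity trend, after keeping genes with log2 CPM of at least 0 in both libraries of a group. Calls needed a Benjamini-Hochberg adjusted p under 0.05 and an absolute log2 fold change of 1 or more. Where leaving out a library leaves 1 in a group, that library is assumed to vary like the other groups. The code was tested on simulated counts with the same spread setting in every library. Real spread differed between groups, so that test checks the code and not the reliability of these calls.

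Named genes were the 12 largest rises and falls and the 8 largest gains and losses in CPM among genes that held. Those genes also needed rod groups without overlap and a mean log2 CPM of at least 3 in the higher group. Up to 6 members per list, Hk2, Bsn and Tmsb10, and the 8 largest differences from cones each way were added. Genes without a known role, and others allowed by the rule, are not all named. Kif17, Gnat2 and Pde6c stand under the list rule. The members and lists were chosen with earlier results of these data known. The labels do not say whether replicate numbers pair the libraries, and the main fit did not pair them.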

Additional observations from a re-analysis of the deposited data

Results flagged for a closer look

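For the genes given here the change from P13 to P30 in rods differed from that in cones by a test of the difference, in limma with adjustment over all genes, at an adjusted p under 0.05. Each value is the log2 change in rods minus that in cones. Among genes of energy use, Hk2 differed by 2.32 ± 0.48, Ldha by -1.45 ± 0.30, Cox6c by -2.63 ± 0.39 and Ndufa1 by -3.11 ± 0.43. At the terminal, Snap25 differed by -2.06 ± 0.24, Cplx3 by -1.69 ± 0.31, Ppfia2 by -2.02 ± 0.28 and Cacna1f by 1.27 ± 0.25. Of young neuron genes, Tmsb10 differed by -5.19 ± 0.49, Fabp7 by -7.01 ± 1.40, Celf3 by -4.06 ± 0.43 and Tenm3 by -4.78 ± 0.93. In the nucleus, Mef2c differed by 6.87 ± 1.43, H3f3b by -1.97 ± 0.35, Cbx5 by 1.71 ± 0.28, Smug1 by 2.22 ± 0.21 and Jun by -2.37 ± 0.48. The remaining genes were Cdhr1 at -1.24 ± 0.23, Rpl23 at -2.75 ± 0.37, Sod1 at -2.26 ± 0.30 and Flna, an actin crosslinker, at 8.93 ± 1.90. Mef2c was at 29.9 and 28.9 CPM in cones at P13 and 5.61 and 15.3 CPM at P30, lower where rods were higher.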

How the results depend on the processing

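The number of genes called in rods was 1614. It was 0 with only the 4 libraries of both groups (limma; 2153 at an unadjusted p under 0.05), 114 with the 6 rod libraries, 401 with array weights, 1070 with quantile normalization and 820 at a log2 fold of at least 2. Leaving out 1 rod library gave 783 to 3069. For the difference from cones, 1346 became 2 with only the 8 libraries, 130 with array weights, 2070 with plain read totals, 655 with quantile normalization and 767 at a log2 fold of at least 2, and leaving out 1 library gave 692 to 2906.

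The other alternatives stayed within 1.5 times, among them voom on recovered reads (1936 in rods), log2(CPM + 1) (1623) and genes with reads in all 4 rod libraries (1236, chosen after seeing the data). With the replicate number as a block 1588 and 1315 genes were called, and none of the 106 genes followed through the alternatives changed its call. Deviations of the first P13 and first P30 rod library from their group means correlated at 0.051 over all tested genes, which does not settle pairing for single lists. None of the 106 reversed while called. Of the 106, 95 were called in the main fit. Of those 95, 81 lost the call with the 6 rod libraries, 38 with array weights and 20 with quantile normalization. At the depth of the P13 libraries 3 reads are 0.105 and 0.0755 CPM, so lower levels cannot be told from none.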

Other observations

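Some genes called higher at P30 were also higher at P7 than at P13, and both comparisons share the P13 libraries. The genes given here were chosen after their values were seen. Prim1, the catalytic subunit of DNA primase, was at 17.6 and 4.32 CPM at P7, 0.0351 and 0.0252 CPM at P13 and 33.9 and 40.6 CPM at P30. Enox2, a surface NADH oxidase, was at 19.4 and 29.7 CPM, 0.176 and 0 CPM and 10.5 and 25.9 CPM at the same ages. Flna, which crosslinks actin, was at 7.98 and 8.68 CPM, 1.12 and 0 CPM and 28.4 and 27.6 CPM. Rsph10b, a radial spoke protein, was at 5.62 and 1.80 CPM, 0.0351 and 0.0252 CPM and 7.79 and 15.2 CPM. The replicate SD was larger at P13 than at either other age, and its part in these values was not tested. In cones at P13 Enox2 was at 37.0 and 55.6 CPM and Flna at 64.1 and 56.6 CPM.

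Gng11, a G protein gamma subunit, was at 0.0351 and 0 CPM at P13 and at 6.32 and 16.7 CPM at P30. It lies at chromosome 6, 4003904 to 4008445, downstream of Gngt1 (chromosome 6, 3993792 to 3997436) on the same strand, and Gngt1 was lower at P30. Cd207, the Langerhans cell lectin langerin, was at 0 and 0.0252 CPM at P13 and at 8.51 and 10.3 CPM at P30, with no reads in any of the 4 cone libraries of these ages, while microglia markers summed to at most 14.4 CPM.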
